A study of Mus musculus with 4 samples.

Results

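The 39 genes described here encode heat shock chaperones and the machinery of the unfolded protein response. They were taken by name and kept apart by compartment, as 17 genes of the cytosol (with their transcription factor Hsf1), 3 of the mitochondrion and 19 of the endoplasmic reticulum (ER). All 39 had a value in every library and passed the filter on low values, and they belong to 11298 genes tested among 22255 genes with a named transcript in all libraries. The level of a gene is the sum of the FPKM (fragments scaled to transcript length and library size) of its transcripts of 200 bases or more.

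The cells were 46C mouse embryonic stem (ES) cells in which a TAP tag of Flag, Ha and His had been knocked in at the end of the endogenous Atad2 gene, and the cells of both groups therefore carry this allele and descend from 1 clone. Atad2 is an AAA ATPase with a bromodomain that binds acetylated chromatin. Cells were transfected with a scrambled siRNA (si-ctrl, 2 libraries) or with siRNA against Atad2 (si-Atad2, 2 libraries), and were grown in serum with LIF. The labels call the libraries of a group replicates and name a single active siRNA, whereas the study's text and legend speak of 2 different siRNAs against Atad2, and the legend adds that every RNA was run in 2 rounds. Whether si-Atad2 1 and si-Atad2 2 received different siRNAs, were separate cultures or were 1 RNA is therefore not settled. The SE and p-values may measure technical spread alone or a difference between siRNAs, and a value seen in si-Atad2 1 alone cannot be tied to the siRNA, the culture or the library. The authors set si-Atad2 1 against si-ctrl 1 (pair 1) and si-Atad2 2 against si-ctrl 2 (pair 2), and every ratio below is log2((si-Atad2 FPKM + 1)/(si-ctrl FPKM + 1)) within such a pair.

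Chaperones bind unfolded proteins and help them to fold. In the cytosol, Hsp70 proteins work with J proteins, which bring substrates, and with Hsp110 proteins, which exchange nucleotides, while Hsp90 and the TRiC chaperonin ring take over later folding steps, and heat shock factor Hsf1 raises many of these genes after stress. In the ER the sensors Ern1 (IRE1), Eif2ak3 (PERK) and Atf6 respond to unfolded proteins and, through Xbp1 and other factors, raise ER chaperones and degradation genes.

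The regulatory sequences of these responses could be read upstream of several members. RefSeq promoters of GRCm38.p6 were matched for 30 of the 39 genes (12 of the cytosol, 2 of the mitochondrion and 16 of the ER). The 250 bases upstream of the start were searched on both strands. Promoters on the chromosome that carries Hspa9 were left out before the search, so Hspa9 could not be matched. The percentages of all promoters given below lack that chromosome too. The strict heat shock element GAANNTTCNNGAA or TTCNNGAANNTTC, 2 patterns that can overlap, was found in 0.466% of 32851 promoters. It had a match in 0 of the 12 cytosolic members, and looser forms of the element or more distant sequence were not searched. Among the members it was found in the promoters of Hspd1 and Hspe1. These head-to-head genes of the mitochondrial chaperonin and its co-chaperonin share the same match at chr1:55088054-55088081, which is shown here on the strand of each gene because it is 1 stretch read by a pair of genes. The annotation also places it in the 5′ untranslated exon of a longer Hspd1 transcript. Capitals mark the element.
Hspe1: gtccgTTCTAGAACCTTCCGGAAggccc
Hspd1: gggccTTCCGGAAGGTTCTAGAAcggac

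The ER stress response element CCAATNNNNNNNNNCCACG, which is bound by NF-Y and Atf6, was found in 0.113% of the 32851 promoters and in 7 of the 16 ER members with a promoter. The related element II, ATTGGNCCACG, was found in 0.0304% of promoters and, among members, in that of Herpud1. The core of the unfolded protein response element, TGACGTGG, had a match in 0.563% of promoters and in none of the 30 members. The matches in capitals below are shown because, of the motifs searched, the ER stress response element was found in more ER members than any other. Herpud1 is shown with element II, and the matches of Calr and Creld2 are on the strand opposite to the gene. The printed stretches, each on the strand of its gene, lie at chr2:34772020-34772048 for Hspa5 (plus strand), chr8:84847055-84847113 for Calr (minus strand), chr11:50325780-50325838 for Canx (minus strand) and chr12:17266471-17266529 for Pdia6 (plus strand). The others lie at chr14:118937807-118937865 for Dnajc3 (plus strand), chr15:88819500-88819558 for Creld2 (plus strand), chr10:86705513-86705676 for Hsp90b1 (minus strand, with a match on either strand) and chr8:94386357-94386407 for Herpud1 (plus strand). The Hspa5 stretch lies in an exon of a longer Hspa5 transcript in the annotation, and the other stretches in no exon.
Hspa5: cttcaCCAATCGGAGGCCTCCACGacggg
Calr: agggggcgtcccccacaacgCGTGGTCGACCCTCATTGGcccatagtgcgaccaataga
Canx: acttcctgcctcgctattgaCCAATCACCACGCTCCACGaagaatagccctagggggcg
Pdia6: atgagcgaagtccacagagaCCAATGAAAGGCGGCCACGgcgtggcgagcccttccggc
Dnajc3: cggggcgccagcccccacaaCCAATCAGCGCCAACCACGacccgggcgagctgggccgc
Creld2: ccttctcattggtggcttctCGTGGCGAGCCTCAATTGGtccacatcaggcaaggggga
Hsp90b1: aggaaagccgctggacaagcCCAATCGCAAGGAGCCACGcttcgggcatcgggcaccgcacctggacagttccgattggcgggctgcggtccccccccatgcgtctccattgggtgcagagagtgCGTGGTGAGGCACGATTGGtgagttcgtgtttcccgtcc
Herpud1: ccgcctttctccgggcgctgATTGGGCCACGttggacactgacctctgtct

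The knockdown itself was visible in both pairs. Atad2 fell from 34.1 to 10.1 FPKM in pair 1 and from 36.0 to 13.0 FPKM in pair 2 (mean log2 ratio -1.53 ± 0.08 SE, limma adjusted p = 2.23e-05). Over all genes tested, 143 were called higher and 39 lower at an adjusted p under 0.05, which is 1.27% and 0.345% of them, and the median log2 ratio was -0.01. The 8 ES cell markers checked ranged from 62.9 to 1013 FPKM and the 11 markers of differentiated cells and fibroblasts from 0 to 6.75 FPKM. Of the ES cell markers, 6 of 8 were lower in both pairs and 1 higher, against 34.2% and 28.3% of all genes. After rescaling to TPM these counts were 4 and 3, against 24.0% and 38.1% of all genes. By median of ratios they were 5 and 1, against 31.0% and 31.0%. The summed level of the ES cell markers was 3232 and 3282 FPKM with si-ctrl against 3055 and 3077 FPKM with si-Atad2. That of all genes tested was 297800 and 296400 FPKM with si-ctrl against 290400 and 288800 FPKM with si-Atad2. None of the ES cell markers was called. Limma gave 3 of 8 (Pou5f1, Nanog and Dppa5a) an unadjusted p under 0.05, all lower, against 7.7% of all genes. Pou5f1 had pair ratios of -0.13 and -0.15, Dppa5a of -0.15 and -0.13, and Nanog of -0.42 and -0.09. The summed level of the markers of differentiated cells was 14.2 and 13.8 FPKM with si-ctrl and 12.8 and 14.5 FPKM with si-Atad2. In such bulk samples fewer cells of a type and less RNA per cell cannot be told apart.

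Most cytosolic and mitochondrial chaperones were among the most abundant mRNAs of these cells. Hsp90ab1, the constitutive Hsp90, ranked as number 7 of 11298 genes by its mean si-ctrl level, with 1529 and 1491 FPKM in the si-ctrl libraries. The stress-inducible Hsp70 genes Hspa1a and Hspa1b stood at the other end of the range, at 1.25 and 3.09 FPKM on average. The constitutive Hsp70 gene Hspa8 was 24.5 times higher than Hspa1b in si-ctrl 1 and 25.4 times higher in si-ctrl 2. The 3 mitochondrial genes lay within a narrow span of 200 to 221 FPKM on average in si-ctrl, and the ratio of the chaperonin Hspd1 to its co-chaperonin Hspe1 was between 1.03 and 1.07 in all 4 libraries. For both Hspd1 and Hspe1, 44.8% of such stretches occur in other genes, which limits their ratio too. By the mean si-ctrl level, ER genes ran from 2.78 FPKM for the sensor Ern1 to 250 FPKM for the ER Hsp90, Hsp90b1. On this mean si-ctrl level the 3 sensors did not exceed 9.91 FPKM, and Dnajb9, Herpud1, Hspa13 and Dnajc3 lay in the same range, between 8.73 and 9.84 FPKM.

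**Figure D1:**
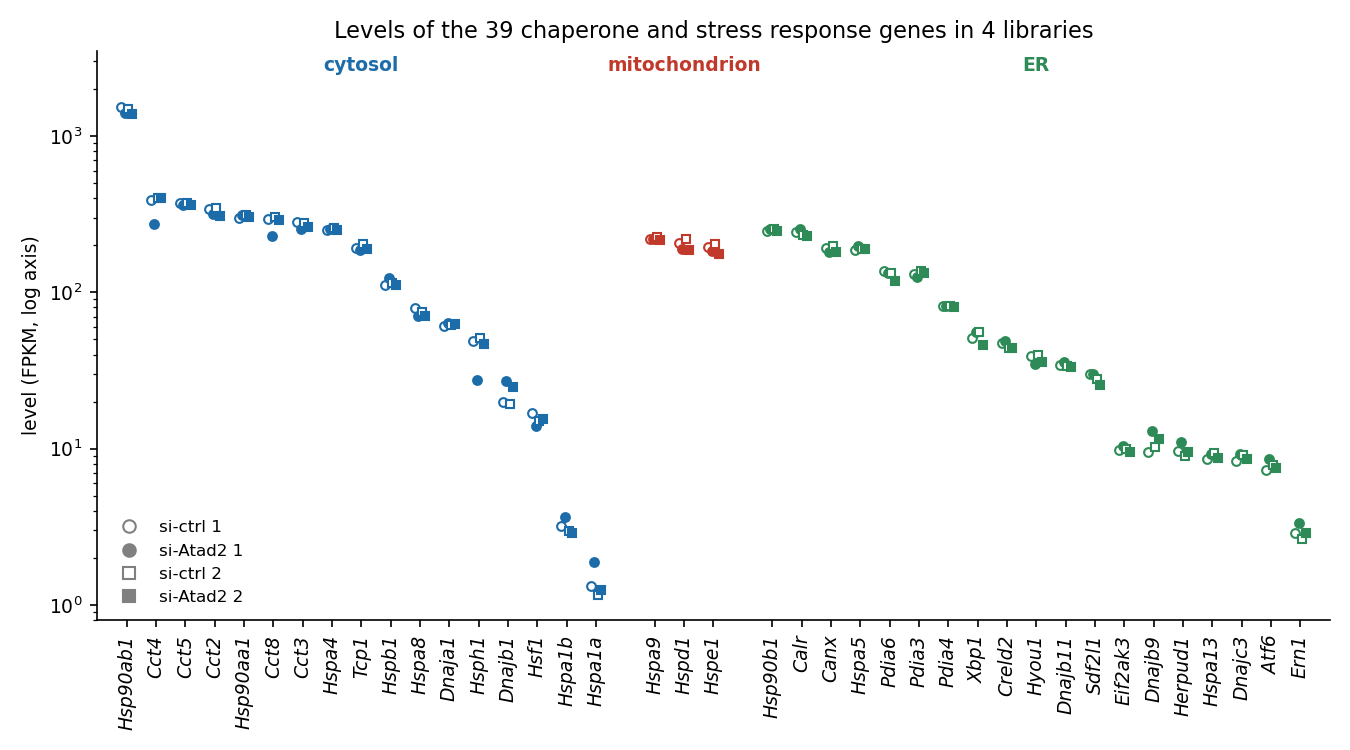
Level in FPKM (log axis) of each of the 39 genes in the 4 libraries, ordered within each compartment by the mean si-ctrl level; open symbols are si-ctrl, filled symbols si-Atad2, circles pair 1 and squares pair 2. The 4 symbols of most genes lie close together, Hsph1, Cct4 and Cct8 have 1 low symbol each (si-Atad2 1), and both filled symbols of Dnajb1 lie above its open ones.

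A single member, Dnajb1, was called after Atad2 knockdown. It was called higher, which is 2.56% of the members against 1.27% of all genes, and no member was called lower, against 0.345% of all genes. At an unadjusted p under 0.05, limma gave 2 members higher and 7 lower, against 8.11% and 7.7% of all genes tested. By direction alone, 7 of the 39 members (17.9%) were higher and 15 (38.5%) lower in both pairs, against 28.3% and 34.2% of all genes. After rescaling to TPM these counts were 11 and 12, against 38.1% and 24.0% of all genes, and by median of ratios 9 and 15, against 31.0% and 31.0%. Both si-Atad2 libraries lay above both si-ctrl libraries for 4 members and below them for 13, against 22.0% and 26.8% of all genes. The libraries of a group differed by a median of 0.06 (si-ctrl) and 0.10 (si-Atad2) in log2 level over the 39 members. The ratios themselves had a median size of 0.10 in pair 1 and 0.08 in pair 2.

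**Figure D2:**
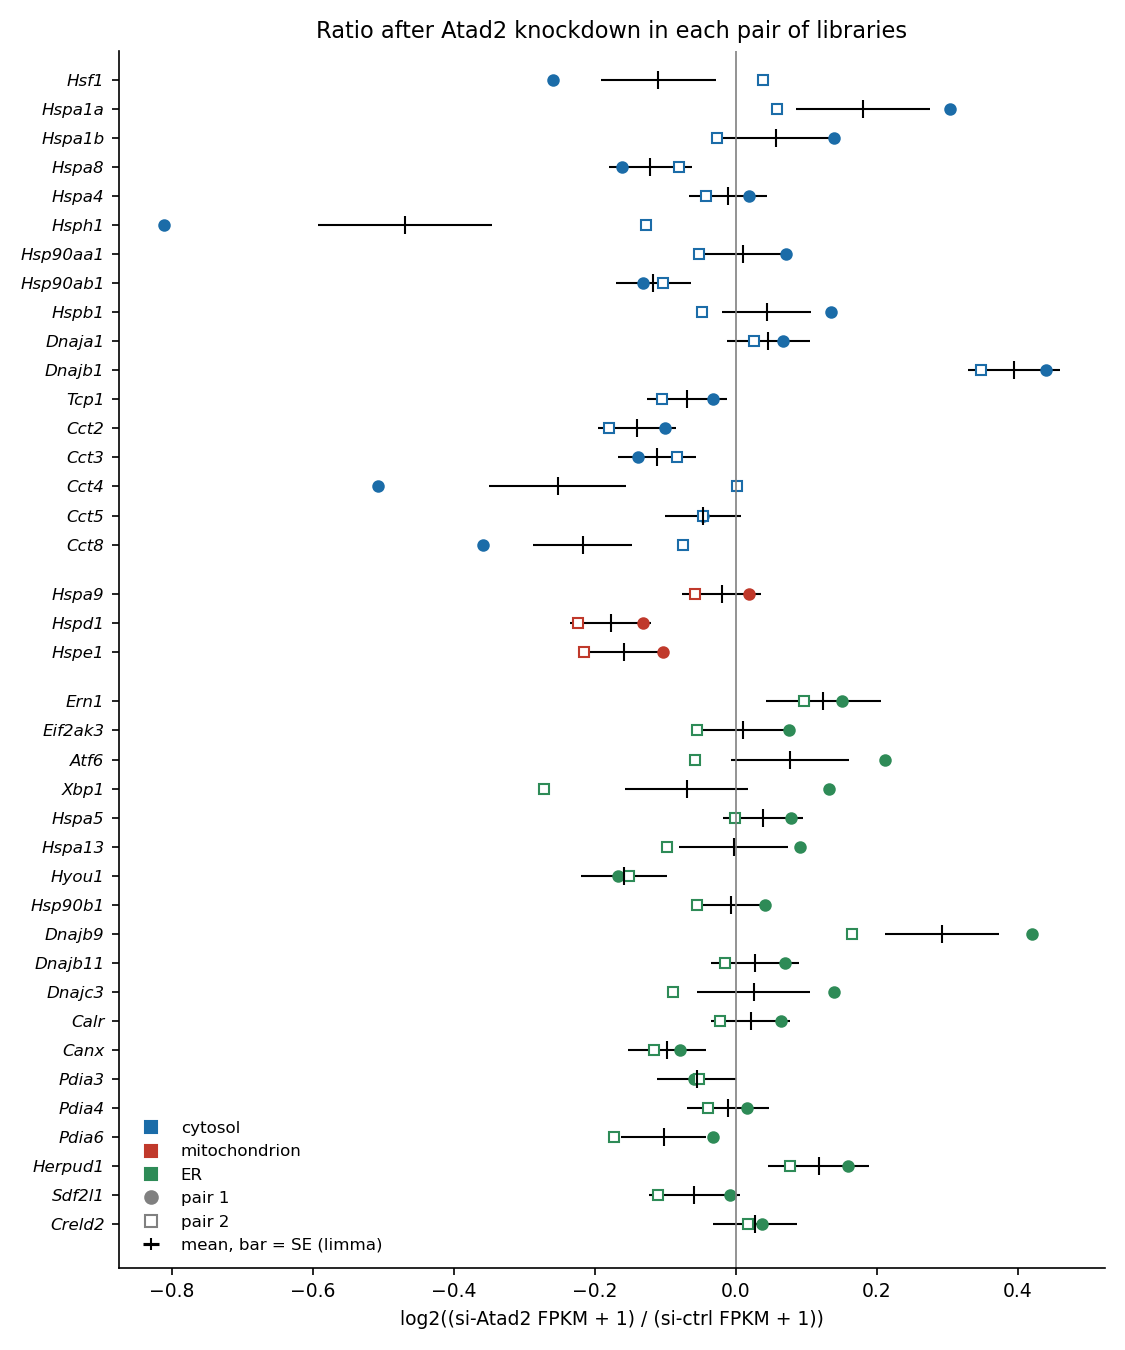
Log2 ratio of si-Atad2 over si-ctrl (pseudocount 1 FPKM) of every member, with pair 1 as filled circles, pair 2 as open squares, and the mean with its limma SE as a black bar. Dnajb1 is the sole member called, with both pairs above 0.3. Hsph1, Cct4 and Cct8 have a much lower value in pair 1 than in pair 2.

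Dnajb1, a J protein that stimulates cytosolic Hsp70 and is strongly heat inducible, rose in both pairs. Its level was 19.8 and 19.3 FPKM in the si-ctrl libraries, against 27.3 FPKM in si-Atad2 1 and 24.9 FPKM in si-Atad2 2. The groups did not overlap, and the log2 ratios were 0.44 and 0.35 (mean 0.39 ± 0.07 SE, limma adjusted p = 0.0156). The gene lies at chr8:83608193-83612653 on GRCm38 with no other coding gene over it, and 98.4% of its level came from a single transcript of 2264 bases. For that transcript the authors' 95% intervals were 18.8 to 20.5 and 17.7 to 19.5 FPKM in the si-ctrl libraries and 26.0 to 28.0 and 23.6 to 25.6 FPKM in the si-Atad2 libraries. These intervals do not overlap between groups, but each describes 1 library and not the spread between libraries. In an annotated Dnajb1 transcript of 2854 bases, 0.463% of the 50-base windows also occur in transcripts of other genes, 533 genes in all. The call was lost when si-ctrl 1 or si-ctrl 2 was left out (adjusted p = 0.374 and 0.401), at a log2 ratio that stayed at 0.41 and 0.38.

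The other cytosolic J protein, Dnaja1, differed little between libraries, at 61.0 and 61.8 FPKM with si-ctrl and 63.9 and 62.9 FPKM with si-Atad2 (log2 ratio 0.05 ± 0.06 SE, adjusted p = 0.759). Of its windows 30.6% are shared with other transcripts, so its level is less certain than that of Dnajb1.

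The inducible Hsp70 genes and their regulator did not pass the test. Hspa1a was at 1.33 (si-ctrl 1), 1.16 (si-ctrl 2), 1.88 (si-Atad2 1) and 1.25 FPKM (si-Atad2 2). The si-Atad2 1 library was the high one and the groups overlapped (log2 ratio 0.18 ± 0.10 SE, adjusted p = 0.401). Hspa1b was at 3.22, 2.96, 3.64 and 2.89 FPKM in the same order, again highest in si-Atad2 1 (log2 ratio 0.06 ± 0.08 SE, adjusted p = 0.797). These neighbouring genes share 66.3% (Hspa1a) and 62.3% (Hspa1b) of their windows with other genes, mostly with each other, so reads can be split between them in an uncertain way. Hsf1, the transcription factor of the heat shock response, was at 16.9 and 15.0 FPKM in si-ctrl 1 and si-ctrl 2, and at 14.0 and 15.4 FPKM in si-Atad2 1 and si-Atad2 2, with opposite signs in the pairs (-0.26 and 0.04).

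The Hsp110 gene Hsph1, whose protein exchanges nucleotides on Hsp70, had the most negative ratio of all members, which came mainly from pair 1. Its level was 48.9 (si-ctrl 1), 51.2 (si-ctrl 2), 27.5 (si-Atad2 1) and 46.8 FPKM (si-Atad2 2). Both si-Atad2 values were below both si-ctrl values, but the log2 ratios were -0.81 and -0.13 in pairs 1 and 2 (mean -0.47 ± 0.12 SE, adjusted p = 0.101). Among all genes tested, the ratio of pair 1 stood at percentile 0.0797 and that of pair 2 at percentile 14.2. In its main transcript of 3478 bases (chr5:149614287-149636376 for the gene), the authors' interval for si-Atad2 1, 25.4 to 26.9 FPKM, lay far from the 44.1 to 46.2 FPKM of si-Atad2 2. The other Hsp110 gene, Hspa4, was about 5 times as abundant as Hsph1 in both si-ctrl libraries (5.09 and 5.06 times) and in si-Atad2 2 (5.38 times), and 9.19 times in si-Atad2 1. Hspa4 itself ranged between 249 and 259 FPKM (log2 ratio -0.01 ± 0.06 SE).

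The remaining cytosolic chaperones showed small ratios. Hsp90ab1 was at 1529 and 1491 FPKM with si-ctrl and 1397 and 1388 FPKM with si-Atad2, with the groups apart (log2 ratio -0.12 ± 0.05 SE, adjusted p = 0.324). Hsp90aa1, the inducible Hsp90, was at 299 and 312 FPKM with si-ctrl and 314 and 301 FPKM with si-Atad2, and its groups overlapped. Of its windows 65.6% occur in other genes. Hspa8 was at 79.0 and 75.1 FPKM with si-ctrl against 70.5 and 71.0 FPKM with si-Atad2 (log2 ratio -0.12 ± 0.06 SE, adjusted p = 0.362), but 86.3% of its windows occur in 13 other genes, and the ratio was 0.02 when only transcripts matched by length were used. The small heat shock protein gene Hspb1 ranged from 111 to 123 FPKM, with pair ratios of 0.13 and -0.05, and 60.4% of its windows occur in other genes.

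The subunits of TRiC, the chaperonin that folds actin and tubulin, were mostly lower, and none passed the test. Of the 6 subunit genes among the members, 5 were lower in both pairs, against 34.2% of all genes. By median of ratios 5 were lower, against 31.0% of all genes, and after rescaling to TPM 4, against 24.0%. The same 5 genes had both si-Atad2 libraries below both si-ctrl libraries, against 26.8% of all genes. The median log2 ratio of the 6 was -0.13, while that of all genes tested was -0.01. At an unadjusted p under 0.05, 3 of the 6 passed with limma, all lower, against 7.7% of all genes. The ES cell markers, given above, also had more lower than higher values in both pairs, and their part in this result was not tested. The change in the summed level of the 6 subunits was -13.2% in pair 1 and -5.12% in pair 2. The summed level of all genes tested was also lower with si-Atad2. As a share of that sum, the 6 subunits went from 0.627% to 0.558% in pair 1 and from 0.644% to 0.627% in pair 2.

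Cct4 and Cct8 differed most between the pairs. Cct4 was at 389 (si-ctrl 1), 402 (si-ctrl 2), 273 (si-Atad2 1) and 403 FPKM (si-Atad2 2). Only the si-Atad2 1 library was low, and the log2 ratios were -0.51 and 0.00 (mean -0.25 ± 0.10 SE, adjusted p = 0.24). Cct8 was at 295, 305, 230 and 289 FPKM in the same order, with log2 ratios of -0.36 and -0.08 (mean -0.22 ± 0.07 SE, adjusted p = 0.173). For these genes the si-Atad2 1 value also lay outside the authors' intervals of the other libraries, with 268 to 275 FPKM against 396 to 404 FPKM in si-Atad2 2 for the main transcript of Cct4, and 227 to 233 FPKM against 286 to 293 FPKM for Cct8. The ratio of pair 1 stood at percentile 0.549 (Cct4) and 2.09 (Cct8) of all genes, and the ratio of pair 2 at percentiles 56.7 and 28.0. Cct4 lies at chr11:22990519-23003780 with no coding gene over it, whereas Cct8 (chr16:87483326-87495873) overlaps Usp16, and the use of the strand is not stated. Cct2, Cct3, Cct5 and Tcp1 had smaller ratios, between -0.14 and -0.05. Cct2 came nearest to the threshold, with 339 and 348 FPKM with si-ctrl against 316 and 307 FPKM with si-Atad2 (adjusted p = 0.258). The value of Tcp1 rests on 1 transcript of a locus that it shares with Acat3 and Mrpl18.

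**Figure D3:**
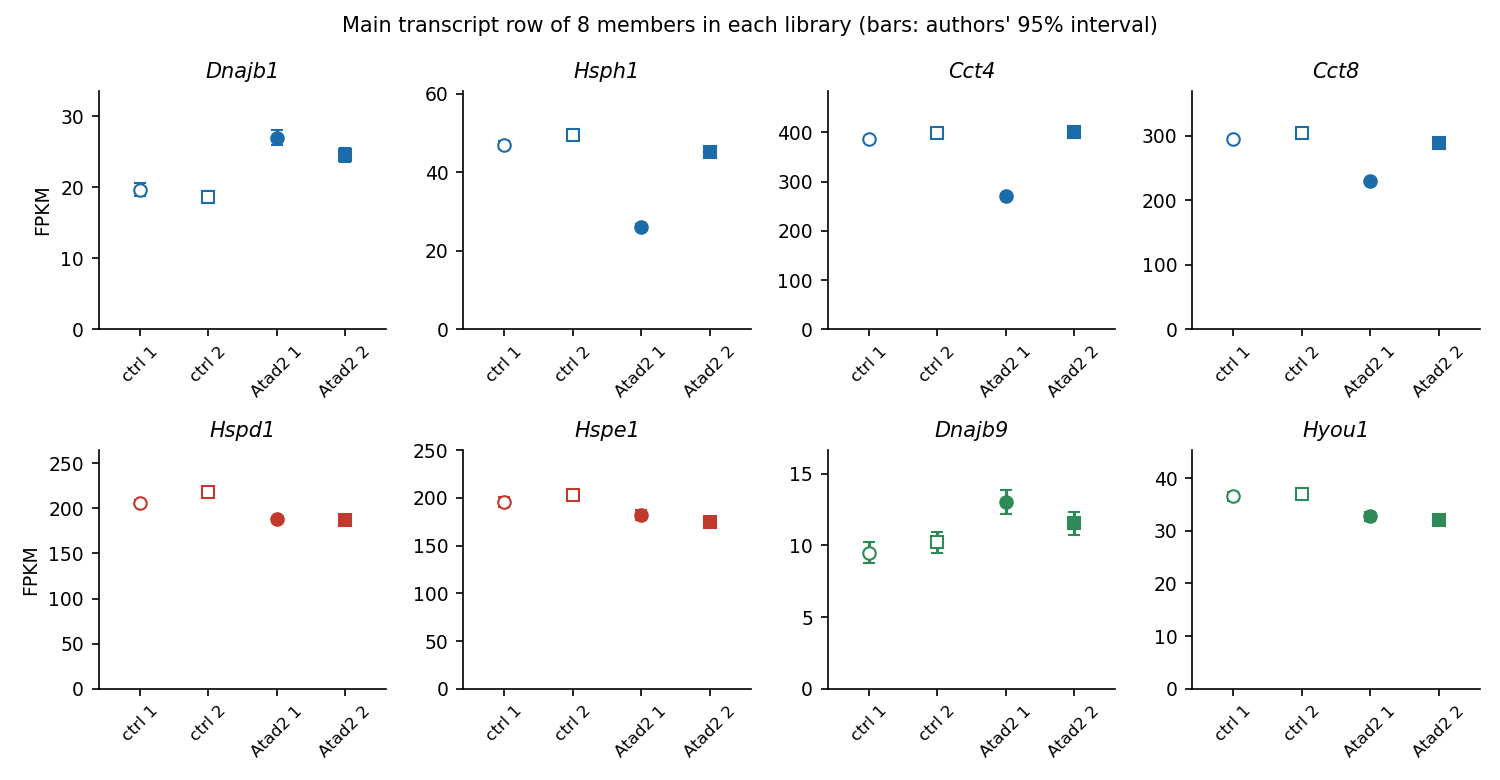
FPKM of the main transcript of 8 members in each library, with the authors' 95% interval for that library as bars (axes start at 0; blue cytosol, red mitochondrion, green ER; filled symbols si-Atad2). Dnajb1 and Dnajb9 are higher in both si-Atad2 libraries, Hsph1, Cct4 and Cct8 are low in si-Atad2 1, and Hspd1, Hspe1 and Hyou1 are slightly lower in both.

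Among the 17 cytosolic genes as a whole, 3 were higher and 8 lower in both pairs, against 28.3% and 34.2% of all genes, and the median log2 ratio was -0.07 (-0.05 in either pair) against -0.01 for all genes. After rescaling to TPM the counts were 4 and 7, against 38.1% and 24.0% of all genes, and the median was -0.03 against 0.02.

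In the mitochondrion no gene was called, and 2 of the 3 had an unadjusted p under 0.05 with limma, both lower, against 7.7% of all genes. As for TRiC, the part of the lower ES cell markers in this was not tested. Hspd1 (Hsp60) and Hspe1 (Hsp10) form the folding chamber of the matrix. Hspd1 was at 206 (si-ctrl 1), 218 (si-ctrl 2), 188 (si-Atad2 1) and 187 FPKM (si-Atad2 2) (log2 ratio -0.18 ± 0.06 SE, adjusted p = 0.169). Hspe1 followed it, with 196, 203, 182 and 175 FPKM in the same order (log2 ratio -0.16 ± 0.06 SE, adjusted p = 0.215). Both genes had si-Atad2 values below both si-ctrl values, and ratios of -0.13 and -0.10 in pair 1 and -0.22 and -0.21 in pair 2. They are the pair whose shared heat shock element is printed above, their annotated ends overlap, and 44.8% of the windows of each occur in other genes. Hspa9, the mitochondrial Hsp70, was at 218, 225, 221 and 216 FPKM and had pair ratios of 0.02 and -0.06 (adjusted p = 0.903).

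In the ER no member was called, and limma gave an unadjusted p under 0.05 for 2 of 19, 1 in each direction, against 8.11% of all genes higher and 7.7% lower. The direction of the 19 genes differed between the pairs, with 14 higher in pair 1 and 4 higher in pair 2. Over all genes tested the same counts were 5660 and 4979 of 11298. The ER members had a median log2 ratio of 0.07 for pair 1, of -0.05 for pair 2 and of 0.01 for both. Over both pairs, 4 of the 19 were higher and 5 lower, against 28.3% and 34.2% of all genes. These counts were 7 and 3 after rescaling to TPM (38.1% and 24.0% of all genes) and 6 and 5 by median of ratios (31.0% and 31.0%).

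**Figure D4:**
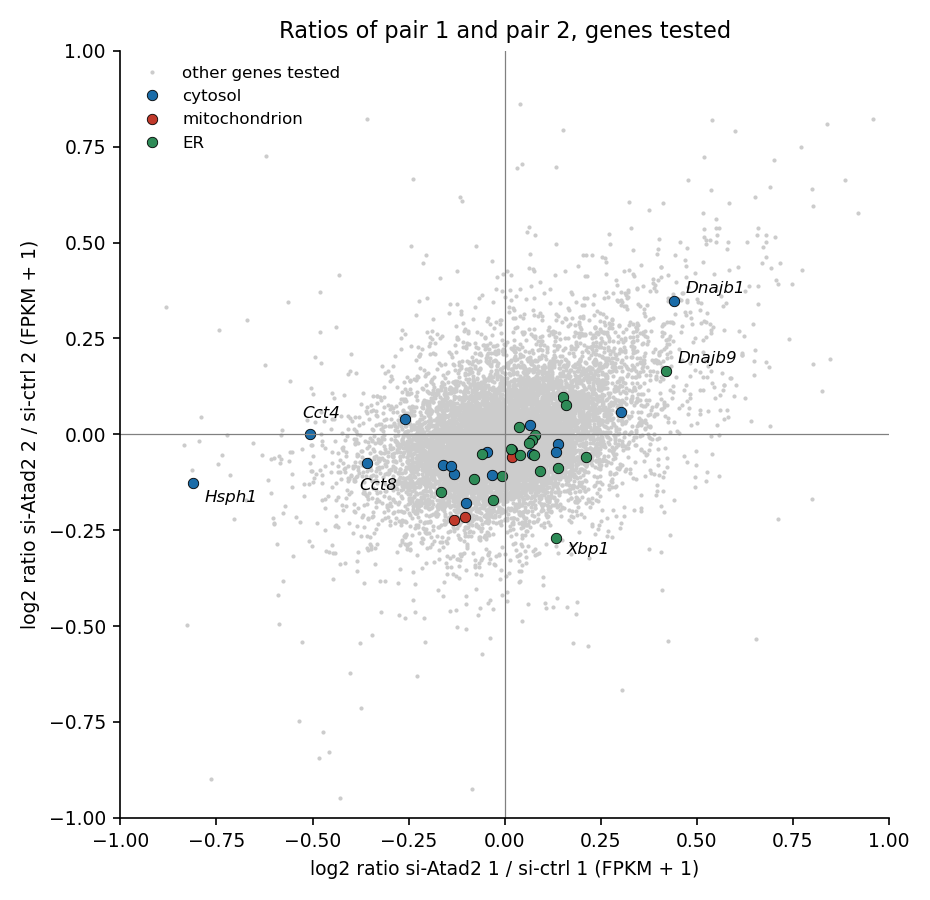
Log2 ratio in pair 1 (x axis) against pair 2 (y axis) for the genes tested (grey) and the members by compartment; 14 genes beyond the axis limits are not drawn. Most ER members (green) lie to the right of 0 and below 0, Dnajb1 and Dnajb9 lie up and to the right, and Hsph1, Cct4 and Cct8 lie far to the left near a ratio of 0 in pair 2.

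The sensors and Xbp1 did not pass the test. Ern1, the kinase and RNase that splices Xbp1 mRNA, was at 2.91 and 2.66 FPKM in si-ctrl 1 and si-ctrl 2, and at 3.34 and 2.91 FPKM in si-Atad2 1 and si-Atad2 2 (log2 ratio 0.12 ± 0.08 SE, adjusted p = 0.503). Eif2ak3, the kinase that phosphorylates eIF2 alpha, was at 9.87, 9.95, 10.5 and 9.54 FPKM in the same order (log2 ratio 0.01 ± 0.07 SE). Atf6, which is cleaved to a transcription factor, was at 7.28, 7.83, 8.60 and 7.48 FPKM, with its highest value in si-Atad2 1 (log2 ratio 0.08 ± 0.08 SE). Xbp1 had the largest excess of pair 1 over pair 2 among the members, with 51.1 to 56.1 FPKM in pair 1 and 56.0 to 46.3 FPKM in pair 2, from si-ctrl to si-Atad2. Its log2 ratios were 0.13 and -0.27 (mean -0.07 ± 0.09 SE, adjusted p = 0.756), and the difference between them stood at percentile 98.5 of all genes. Its value sums the transcripts of the locus and does not tell spliced from unspliced mRNA.

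The 3 ER genes with the highest ratios were Dnajb9, Ern1 and Herpud1. Dnajb9 (ERdj4), a J protein that works with the ER Hsp70 and is a classical target of Xbp1, was at 9.49 (si-ctrl 1), 10.2 (si-ctrl 2), 13.0 (si-Atad2 1) and 11.6 FPKM (si-Atad2 2). The groups did not overlap, but the gene missed the threshold (log2 ratios 0.42 and 0.16, mean 0.29 ± 0.08 SE, adjusted p = 0.111). The authors' intervals of its only transcript overlapped between the groups, since that of si-ctrl 2 reached 11.0 FPKM and that of si-Atad2 2 began at 10.7 FPKM. Herpud1, a membrane protein of ER-associated degradation that carries the element II shown above, was at 9.74, 8.95, 11.0 and 9.50 FPKM in the same order, and its groups overlapped (log2 ratio 0.12 ± 0.07 SE, adjusted p = 0.469).

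The lowest ratios in the ER belonged to Hyou1, Pdia6 and Canx. Hyou1, the ER Hsp110, was at 39.2 and 39.8 FPKM with si-ctrl against 34.9 and 35.7 FPKM with si-Atad2, with pair ratios of -0.17 and -0.15 that lay close to each other (mean -0.16 ± 0.06 SE, adjusted p = 0.241). Pdia6, a protein disulfide isomerase, was at 136 and 133 FPKM with si-ctrl and 133 and 118 FPKM with si-Atad2 (adjusted p = 0.457). Canx, the membrane lectin chaperone calnexin, was at 191 and 196 FPKM with si-ctrl and 181 FPKM in both si-Atad2 libraries (log2 ratio -0.10 ± 0.06 SE, adjusted p = 0.436). Its soluble counterpart Calr had pair ratios of 0.06 and -0.02.

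The major lumenal chaperones had ratios near 0. Hspa5 (BiP), the ER Hsp70 that also holds the sensors inactive, was at 187 and 189 FPKM with si-ctrl and 198 and 189 FPKM with si-Atad2 (log2 ratio 0.04 ± 0.06 SE, adjusted p = 0.79). Hsp90b1 (Grp94) was at 245, 256, 252 and 246 FPKM in the same order (log2 ratio -0.01 ± 0.06 SE). For Hspa5 the log2 ratio lay between 0.0003 and 0.16 in the alternative limma fits. Its main transcript, of 2534 bases, stayed between 146.6 and 148.5 FPKM. Its transcript of 2616 bases went from 40.9 to 50.5 FPKM in pair 1 and from 40.7 to 41.5 FPKM in pair 2. The other 8 ER members (Hspa13, Dnajb11, Dnajc3, Calr, Pdia3, Pdia4, Sdf2l1 and Creld2) had log2 ratios between -0.06 and 0.03, with adjusted p of 0.686 or more. The 8 members with an ER stress response element of either kind had a median log2 ratio of 0.02 (0.05 in pair 1 and -0.04 in pair 2). Of these 8, 2 were higher and 2 lower in both pairs, against 28.3% and 34.2% of all genes. None of the 8 was called by limma, against 1.27% of all genes called higher and 0.345% lower. None had an unadjusted p under 0.05 with limma, against 8.11% of all genes higher and 7.7% lower.

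Other genes of protein folding and stress were looked at in lists of 97 genes, of which 89 were tested. Of these, 1 gene, Derl3, was called, and limma gave an unadjusted p under 0.05 for 9 higher and 10 lower, against 8.11% and 7.7% of all genes. Derl3, an ER membrane protein of the degradation pathway, rose from 3.31 to 4.42 FPKM in pair 1 and from 2.92 to 4.69 FPKM in pair 2 (log2 ratio 0.43 ± 0.09 SE, adjusted p = 0.0362). Without si-ctrl 1 or si-ctrl 2 the call was lost (adjusted p = 0.364 and 0.491). In the same ER list of 33 tested genes, 8 were higher and 12 lower in both pairs, against 28.3% and 34.2% of all genes. After rescaling to TPM these counts were 10 and 7, against 38.1% and 24.0%. The median log2 ratio of this list was -0.02. Os9, a lectin of ER degradation, had 4.70 and 4.36 FPKM with si-ctrl and 5.85 and 5.42 FPKM with si-Atad2 (log2 ratio 0.26 ± 0.08 SE, adjusted p = 0.129), and Fkbp2, an ER prolyl isomerase, had 19.2 and 17.3 FPKM against 16.2 and 15.4 FPKM (log2 ratio -0.19 ± 0.07 SE, adjusted p = 0.2).

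The integrated stress response follows from Eif2ak3 and related kinases. Of the 11 tested genes of this response, 6 were higher and 2 lower in both pairs, against 28.3% and 34.2% of all genes. After rescaling to TPM these counts were 6 and 1, against 38.1% and 24.0%. The list holds effectors and also the upstream kinases Eif2ak2 and Eif2ak4. None was called, and 4 had an unadjusted p under 0.05 with limma, all higher, against 8.11% of all genes. These were Ddit3, Chac1, Cebpb and the kinase Eif2ak2, which had pair ratios of 0.35 and 0.08. Ddit3 (CHOP) was at 17.5 and 16.5 FPKM with si-ctrl and 23.6 and 19.4 FPKM with si-Atad2, with the groups apart (log2 ratio 0.32 ± 0.07 SE, adjusted p = 0.0631). Atf4, the factor upstream of Ddit3, had the opposite direction, at 93.1 and 97.1 FPKM with si-ctrl and 91.8 and 84.2 FPKM with si-Atad2 (adjusted p = 0.44).

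Among 35 other cytosolic chaperones and co-chaperones, none was called and 7 had an unadjusted p under 0.05 with limma, 6 of them lower, against 7.7% of all genes lower and 8.11% higher. In both pairs 18 of the 35 were lower and 5 higher, against 34.2% and 28.3% of all genes, with a median log2 ratio of -0.07. After rescaling to TPM 17 were lower and 8 higher, against 24.0% and 38.1% of all genes. Fkbp5, a co-chaperone of Hsp90 and the steroid receptors, was at 46.7 and 47.9 FPKM with si-ctrl and 37.4 and 41.4 FPKM with si-Atad2 (log2 ratio -0.26 ± 0.06 SE, adjusted p = 0.0779). A further TRiC subunit, Cct7, was at 193 and 194 FPKM with si-ctrl and 160 and 181 FPKM with si-Atad2 (log2 ratio -0.19 ± 0.06 SE, adjusted p = 0.178), with the low value again in si-Atad2 1. Of 10 other mitochondrial chaperones and proteases none was called. With limma 2 of them had an unadjusted p under 0.05, both lower, against 7.7% of all genes. In both pairs 5 were lower and 2 higher, against 34.2% and 28.3% of all genes. After rescaling to TPM 3 were lower and 4 higher, against 24.0% and 38.1%.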

How the data were processed

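RNA-seq (TruSeq, paired ends of 50 cycles) of 2 si-ctrl and 2 si-Atad2 libraries was analysed, with groups and replicate numbers from the labels. The authors ran Cuffdiff once per pair and deposited FPKM per transcript, scaled within the run, with 95% intervals. The submitters' processing notes name TopHat, Cuffdiff and mm9 without versions, but the loci lie at GRCm38 positions. Deposited tables of the authors' own fold changes and p-values were not used. The tables hold no read counts, so the depth is unknown and no count model was run. The 39 members and all lists were chosen with earlier results of these data known.

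The 59120 transcripts were named from GENCODE vM21 (GRCm38) by transcript length within 3 bases inside the locus, by RefSeq gene bounds within 100 bases, as the only coding gene of a locus, or by the nearest transcript length, which left 9913 unnamed. The bounds and nearest-length steps were added after seeing the files, because several members had no transcript or a minor one. FPKM of transcripts of 200 bases or more were summed per gene. Genes with a mean of at least 1 FPKM were tested on the log2((si-Atad2 + 1)/(si-ctrl + 1)) ratios of the pairs with limma 3.58.1 (lmFit, eBayes with a trend, Benjamini-Hochberg over all 11298 genes, threshold 0.05), checked on simulated data. Fold changes of low genes are understated by the pseudocount. With 2 libraries against 2 and the pairing ignored, the smallest two-sided exact permutation p is 0.333, and with the pairs kept it is larger. Values in full are given for called members, the 3 highest and 3 lowest cytosolic and ER members, the mitochondrial members, the most abundant member of each compartment, the sensors, Xbp1, Hsf1, Hspa1a, Hspa1b, Atad2, and the called, 3 highest and 3 lowest other genes. Others named with values were chosen after these were seen. Overlapping genes are uncertain, since strand use is not stated. Shared windows are 50-base stretches of a member's transcript that occur in transcripts of other genes. The alternatives tried are named in the closing section. Tools were R 4.3.3, Python 3.11.15, pandas 2.3.3 and numpy 2.4.6. ChIP-seq, arrays and proteomics of the study were not analysed here.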

Additional observations from a re-analysis of the deposited data

How the results depend on the processing

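Of the members' log2 ratios, that of Dnajb1 was positive under every alternative in which it was tested, between 0.33 and 0.46. Its call was lost with no filter on low values (limma adjusted p = 0.515), with transcripts of all lengths (0.125) and with the highest transcript alone (0.0502). The cytosolic count was then 0. Without si-ctrl 1 or si-ctrl 2 the call of Dnajb1 was lost as well. With transcripts matched by length alone Dnajb1 was not tested, and the count was 0 of 7 cytosolic genes. Leaving out libraries gave 0 to 5 called cytosolic, 0 to 2 ER and 0 to 15 other proteostasis genes. The highest counts came without si-Atad2 2, where Hspa1a, Hsph1, Cct4, Cct8, Dnajb9 and Herpud1 were called beside Dnajb1. With an si-Atad2 library left out the spread comes from the 2 si-ctrl libraries alone, and with an si-ctrl library left out from the 2 si-Atad2 libraries, so the lone library is assumed to vary like the other group. Derl3 lost its call with no filter, all lengths or the highest transcript, and the count of other proteostasis genes was then 0. With a minimum of 5 FPKM or length alone Derl3 was not tested, and that count was also 0. TPM gave 2, with Ddit3. Over all genes, 182 were called, and 0 with no filter (2049 of 22255 at an unadjusted p under 0.05, limma), 324 with TPM, 13 with all lengths, 32 with length alone, 76 with the highest transcript, 384 at a threshold of 0.1, and 0 to 2091 when a library was left out. Atad2 itself lost its call with no filter (0.515) and without si-ctrl 1 (0.0723) or si-ctrl 2 (0.062). The cytosolic median was -0.069 and -0.0673 with pseudocounts of 0.1 and 5 FPKM, -0.11 with a minimum of 5 FPKM, with length alone and with the naming steps added after seeing the data left out, -0.0344 with TPM, -0.0598 by median of ratios and -0.0795 after removal of the GC trend. It lay between -0.0741 and -0.044 when a library or pair was left out. The mitochondrial median (between -0.21 and -0.10) and the ER median (between -0.05 and 0.07) moved by less than the spread between pairs; by length alone no mitochondrial gene was tested. Among 741 alternative values of single genes, 32 were counted as a change of sign, none of them called. That count leaves out changes of sign in the value of a single pair. Of the 39 members, 17 had opposite signs in the pairs. The causes were not tested.

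With no replicate block 142 genes were called, 1 cytosolic, 0 mitochondrial, 0 ER and 1 other, and the medians were -0.07, -0.16 and 0.01. Deviations of same-numbered libraries had a correlation of -0.0248, so the numbers pair the libraries only through the authors' runs. The tables give no counts, and precision at low levels, such as Hspa1a, cannot be stated beyond the authors' intervals.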
